A study of Arabidopsis thaliana with 72 samples.

Results

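The PHT1 phosphate transporters and PHF1 were followed in roots of Arabidopsis thaliana across 12 genotypes and 2 media. The members were 10 genes, taken by locus identifier from the 33602 genes of the deposited expression table. They comprise the 9 PHT1 genes PHT1;1 (AT5G43350), PHT1;2 (AT5G43370), PHT1;3 (AT5G43360), PHT1;4 (AT2G38940), PHT1;5 (AT2G32830), PHT1;6 (AT5G43340), PHT1;7 (AT3G54700), PHT1;8 (AT1G20860) and PHT1;9 (AT1G76430), together with PHF1 (AT3G52190). Roots were taken from 8-day-old seedlings raised on sucrose plates that lacked phosphate (-Pi) or held it (+Pi). The labels allow agar or agarose as the gelling agent and do not tell the 2 apart by library. Of the 11 mutants, 5 lack a single family member (phr1, phl1, phl2, phl3, phl4), and 4 double mutants pair phr1 with each of the others (phr1phl1, phr1phl2, phr1phl3, phr1phl4). A triple mutant (phr1phl1phl2) and a quadruple mutant (phr1phl1phl2phl3) complete the set, and the wild type is col-0 (Col). Every double, triple and quadruple mutant carries phr1, and no allele is named in the labels. Each of the 24 groups had 3 libraries, 72 in all. The series calls them biological replicates without saying that they came from separate plates, so p-values measure the spread between these libraries, which may be technical.

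PHT1 proteins are plasma membrane carriers that move phosphate into cells together with protons, and in roots they take it up from the soil and load it onward to other tissues. PHF1 sits in the endoplasmic reticulum and is needed for newly made PHT1 proteins to leave it, so a root with PHT1 transcript but no PHF1 carries little transporter at its surface. PHR1 and its PHL relatives are MYB coiled-coil transcription factors. They bind a short palindrome called P1BS in the promoters of genes that are switched on when phosphate runs short, and the study asked how 5 members of that family share this work.

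Levels are RPKM, reads scaled by gene length and by library depth, which the authors computed and which can be set side by side between genes because they are per length. Depth was estimated at 11.1 to 40.5 M reads per library, and at the median depth 1 read in PHT1;1 is worth about 0.0216 RPKM. Log2 fold changes and their SE come from 1 limma fit of log2(RPKM + 1), which understates changes of genes near 0. Calls needed a Benjamini-Hochberg adjusted p below 0.05 together with a log2 fold change of 1 or more in either direction. The test took genes that reached 1 RPKM in 3 or more libraries, as 9 of the 10 members and 21206 genes in all did. AT5G43340, a transporter known from pollen, did not, being listed at 0 in 62 of the 72 libraries with a highest value of 0.0802 RPKM.

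The labels were checked on the mutated genes themselves. PHR1 ran from 1.62 to 5.86 RPKM in the 42 libraries labelled as phr1 mutants and from 15.8 to 27.7 RPKM in the other 30, and PHL1 and PHL2 transcripts also separated without overlap. PHL3 did not, at 1.93 to 16.4 RPKM in the 18 libraries labelled with phl3 and 3.99 to 15.6 RPKM in the other 54, and the libraries labelled phl3 or phr1phl1phl2phl3 were not low in it. PHL4 overlapped too, at 2.73 to 5.02 RPKM in the 12 libraries labelled with phl4 and 3.21 to 18.7 RPKM in the other 60. A mutant can keep transcript, so this does not place a library in another genotype, but results for these lines belong to the libraries labelled so. By their dependence on base content and gene length the libraries fell into 3 classes of 33, 22 and 17, and all Col, phr1 and phr1phl1 libraries under -Pi were in the first while all phl2, phl3 and phr1phl3 libraries under -Pi were in the second. All +Pi libraries of phl2, phl3 and the quadruple mutant were in the third. In phl2, phl3, phr1phl3 and the quadruple mutant no class held libraries of both media, so medium and class cannot be told apart there. Under -Pi, phl2, phl3 and phr1phl3 shared no class with Col or phr1. Under +Pi, phl2, phl3 and the quadruple mutant shared none with Col. Genotype and class cannot be told apart in comparisons between these groups. All 7 markers of root tissues were detected, with a summed level of 129 to 299 RPKM.

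The family's 4 members on chromosome 5 lie side by side in the TAIR10.1 annotation. In map order they are AT5G43340 (17393598 to 17395148, minus strand), AT5G43350 (17399769 to 17402158, minus strand), AT5G43360 (17409524 to 17411214, plus strand) and AT5G43370 (17415698 to 17417972, plus strand). The other members lie on chromosome 1 (AT1G20860 at 7253998 to 7258952 and AT1G76430 at 28678935 to 28682062, both minus), chromosome 2 (AT2G38940 at 16257157 to 16260253, plus, and AT2G32830 at 13927606 to 13929763, minus) and chromosome 3 (AT3G54700 at 20248214 to 20250948 and PHF1 at 19353867 to 19357261, both minus). PHT1;1 and PHT1;2 were identical at 97.7% of aligned coding bases, and 41.9% of the 50-base stretches of the first transcript also occur in the second. A read from such a stretch could have been given to either gene, so the split between this pair is uncertain and each of their values carries that limit. PHT1;3 was identical to PHT1;1 at 90.3% of coding bases, and 0.8% of the stretches of AT5G43350 occur in it. No member overlapped another annotated gene.

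P1BS was searched as GNATATNC, a palindrome that reads the same on both strands, in the 1000 bases before each annotated start site. A match was found for 7 of the 10 members, against 20.3% of 27443 promoters of the same length. Of these members, 3 had 2 matches, against 2.78% of promoters with 2 or more. Of the tested members, 6 had no called response in phr1phl1 roots, among them AT2G32830 and AT3G54700 but also AT1G20860 and, without a match here, AT1G76430. Close relatives differ in level among the 3 root uptake genes of the chromosome 5 cluster. The windows below are those of these 3 genes and of AT2G32830 and AT3G54700, with the match in capitals. They were read from the RefSeq TAIR10.1 genome on each gene's own strand, at chr5:17402917-17402964 (minus) for AT5G43350, chr5:17415636-17415683 (plus) for AT5G43370, chr5:17409111-17409158 (plus) for AT5G43360, chr2:13930211-13930258 (minus) for AT2G32830 and chr3:20251045-20251092 (minus) for AT3G54700.
PHT1;1: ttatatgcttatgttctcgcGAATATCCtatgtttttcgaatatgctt
PHT1;2: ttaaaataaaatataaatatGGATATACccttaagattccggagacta
PHT1;3: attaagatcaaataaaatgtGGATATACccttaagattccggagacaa
PHT1;5: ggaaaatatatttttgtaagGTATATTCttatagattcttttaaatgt
PHT1;7: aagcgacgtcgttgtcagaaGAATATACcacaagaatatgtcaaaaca
The windows of PHT1;2 and PHT1;3 share an unbroken run of 27 bases that covers the match, which lies 42 bases before the start site of AT5G43370 and 393 before that of AT5G43360. That of AT5G43350 holds a further match, in lower case, 768 bases before the start site.

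**Figure D1:**
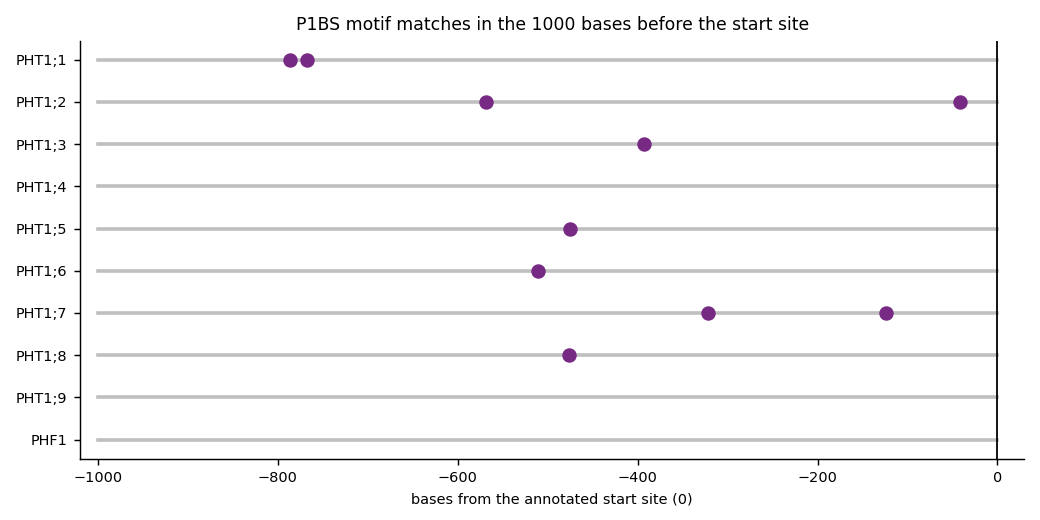
Matches to P1BS (points) along the 1000 bases before the start site of the 10 members (lines), with the distance in bases on the horizontal axis and the start site at 0. The lines of AT2G38940 (PHT1;4), AT1G76430 (PHT1;9) and PHF1 carry no point.

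These 3 genes had no match in this window, which says only that these letters are absent there. Counted from the start codon instead, a window of the same length held a match in 9 of the 10 members, AT3G54700 being the exception, against 18.7% of promoters. In the shorter window of 250 bases before the start site, AT5G43370 and AT3G54700 had a match, against 5.5% of promoters. The nearest upstream protein-coding gene of AT1G20860 (PHT1;8) has its near edge 70 bases from the start site. The match of AT1G20860 lies beyond that edge, at 476 bases. For AT1G76430 (PHT1;9) the near edge is 21 bases away, so its window also runs past the edge of another gene. A match is a stretch of letters, and no binding was measured in these libraries.

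The 9 PHT1 genes together were far more abundant under -Pi. Their summed level was 1622 ± 114 RPKM in phl4 roots, 361 ± 9 RPKM in phr1phl1 roots, 348 ± 23 RPKM in the quadruple mutant and 1080.1 ± 55.1 RPKM in Col roots under -Pi, against 173 ± 9.04 RPKM in Col roots under +Pi (SD, n = 3 libraries each). PHT1;1 and PHT1;4 together made up 98.1% of the sum in phr1phl1 roots, 68.6% in phl4 roots and 82.1% in Col roots under -Pi, and 98.4% in Col roots under +Pi. Under +Pi the sum lay between 128 ± 32.1 RPKM in the triple mutant and 264 ± 45.3 RPKM in phl4.

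**Figure D2:**
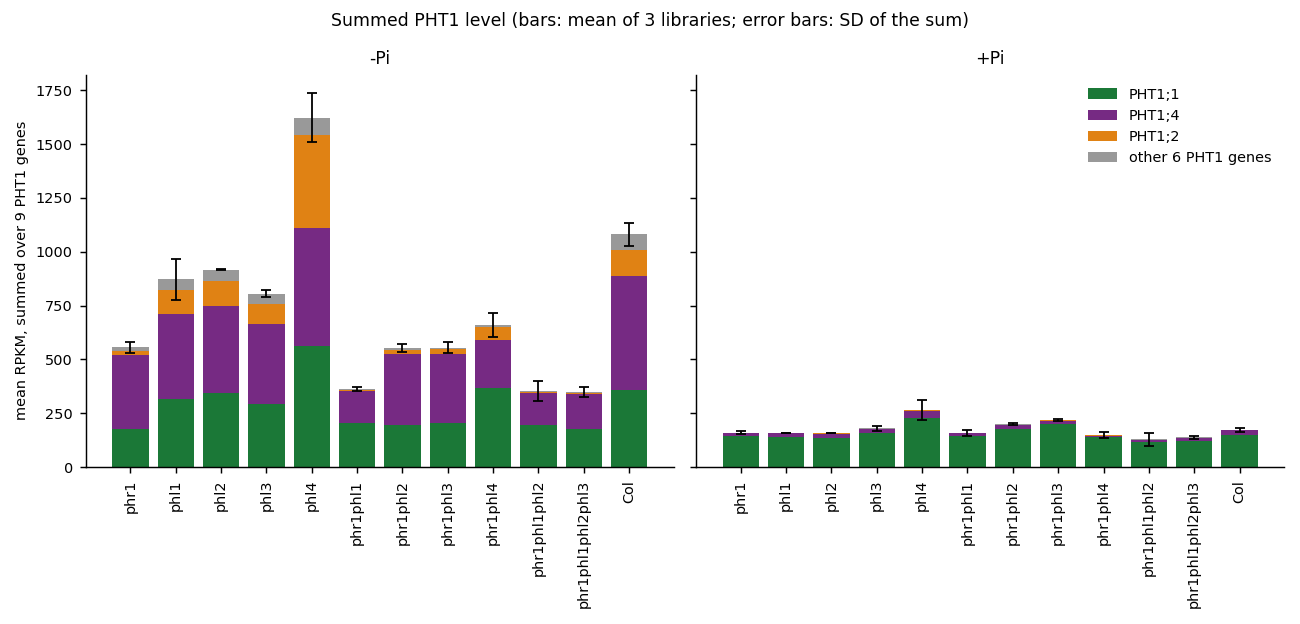
Summed mean RPKM of the 9 PHT1 genes by genotype (bars, stacked by gene) under -Pi (left) and +Pi (right), with the SD of the sum over 3 libraries as error bars. Under -Pi the phl4 bar reaches 1622 RPKM and the bars of phr1phl1, the triple and the quadruple mutant lie between 348 and 361 RPKM, of which 97.4% to 98.1% is the 2 lowest layers.

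Within a group the order of levels was steep. In phr1phl1 roots under -Pi the order was PHT1;1 (204 RPKM), PHT1;4 (151 RPKM), PHF1 (59.5 RPKM) and PHT1;2 (5.17 RPKM), and every other member was under 1 RPKM. In phl4 roots under -Pi, PHT1;1 at 563 RPKM and PHT1;4 at 549 RPKM overlapped between libraries, and PHT1;2 followed at 430.0 RPKM, above PHF1 at 153 RPKM. In Col roots under -Pi it ran PHT1;4 (529 RPKM), PHT1;1 (359 RPKM), PHF1 (144 RPKM), PHT1;2 (121 RPKM), PHT1;8 (23.4 RPKM), PHT1;9 (21.4 RPKM), PHT1;5 (14.6 RPKM), PHT1;7 (11.9 RPKM) and PHT1;3 (0.466 RPKM), and no neighbours in that order overlapped. In Col roots under +Pi, PHT1;1 (147 RPKM) stood alone at the top, and PHT1;4 (23.9 RPKM) and PHF1 (21.7 RPKM) overlapped. All other members were at 1.03 RPKM or below.

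**Figure D3:**
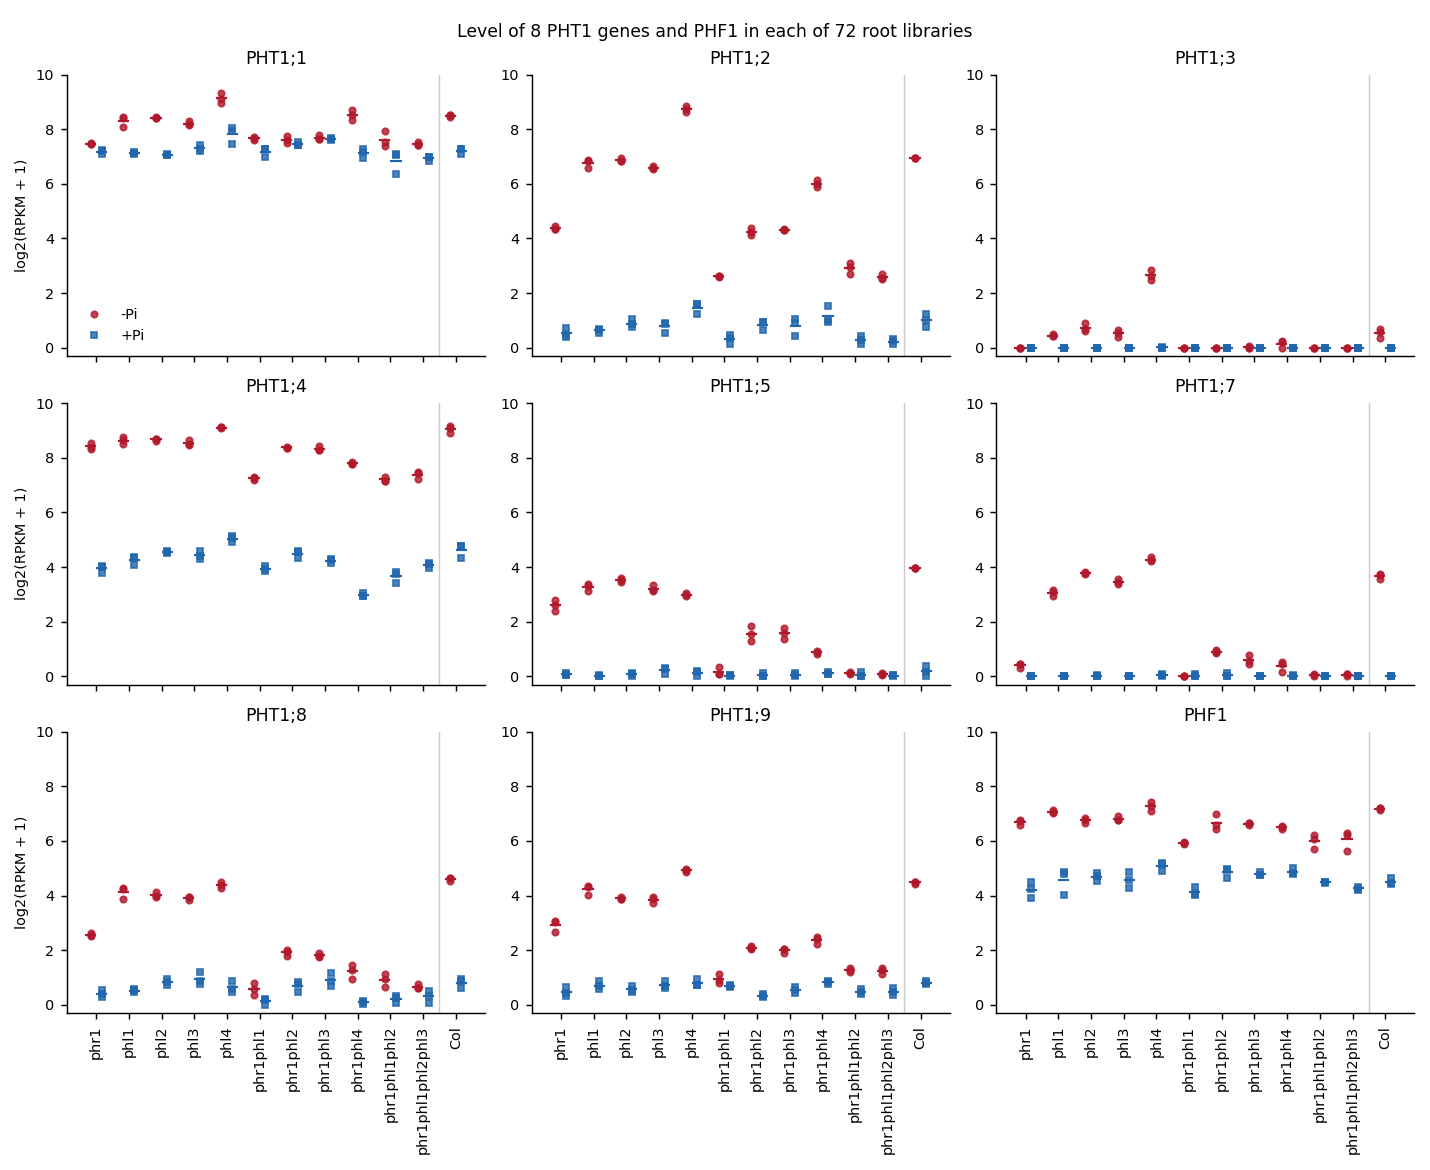
Level of 8 PHT1 genes and PHF1 as log2(RPKM + 1) in each library, by genotype, with -Pi as circles left of +Pi as squares and short lines for the mean of 3 libraries. Col stands at the right of each panel behind a grey line. The circles of phr1phl1 lie at 0.258 RPKM or less for PHT1;5 and at 0 for PHT1;7, against 14.5 and 10.8 RPKM or more in Col.

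Starved wild-type roots raised nearly the whole family. In Col, 8 of the 9 tested members were higher under -Pi than under +Pi, where 6.24% of all tested genes were called higher. The member log2 fold changes had a median of 3.68, against 0.02 over all tested genes. The member not called, AT5G43360, was listed at 0 in all 3 +Pi libraries and had 0.504, 0.273 and 0.621 RPKM under -Pi. In bulk roots, more cells that express a gene and more RNA of it per cell cannot be told apart.

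The same count was taken within each mutant. Of the single mutants, phl4 had 9 members higher under -Pi (background 5.98%), of which AT5G43360 passed the filter on low values through these phl4 libraries alone, so that its call was fixed by the filter. Further, phl1 had 8 (7.50%), phl2 had 8 (21.6%), phl3 had 7 (21.9%) and phr1 had 6 (7.0%). Of the double mutants, phr1phl2 had 6 (17.5%), phr1phl4 had 6 (6.02%), phr1phl3 had 5 (16.7%) and phr1phl1 had 3 (10.8%). The triple mutant had 3 (11.2%) and the quadruple mutant 3 (16.7%), and each had 5 with a pseudocount of 0.1 in place of 1. With library class as a term in the fit, AT5G43350 in phl3 (1.37 in place of 0.91) and AT1G20860 in phr1phl3 (1.06 in place of 0.90) were called as well. In phl2, phl3, phr1phl3 and the quadruple mutant, where no class held both media, these counts and the term cannot part class from medium. The 3 called with the pseudocount of 1 in phr1phl1, the triple and the quadruple mutant were the same genes, AT2G38940, AT5G43370 and PHF1.

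**Figure D4:**
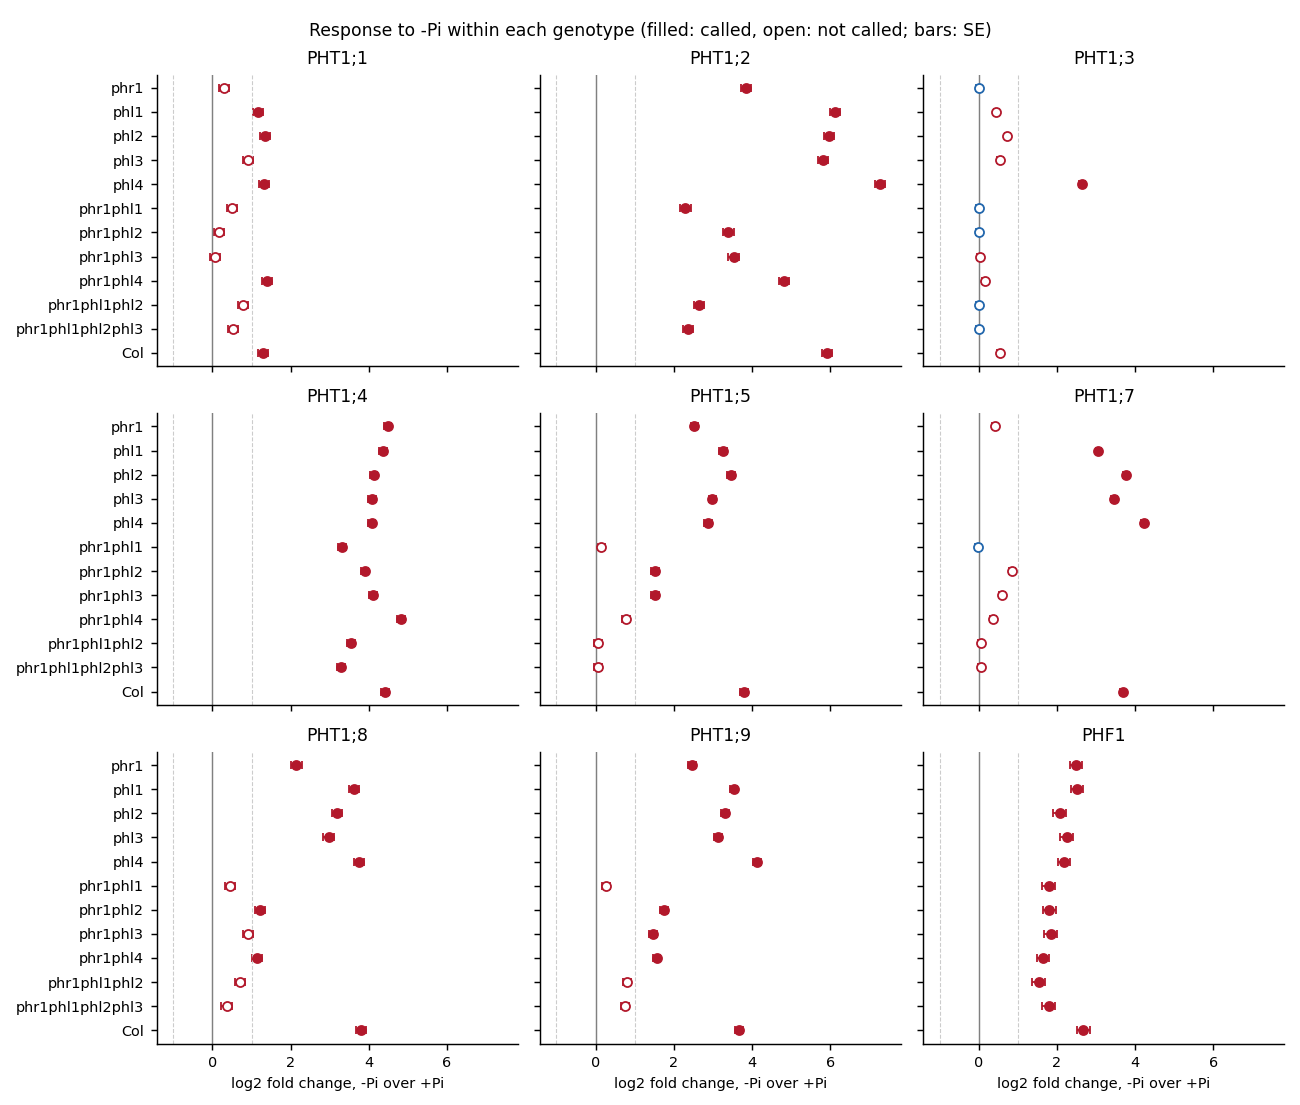
Log2 fold change of -Pi over +Pi within each genotype (rows, Col at the bottom) for 9 genes, with SE as bars, filled points for called genes and dashed lines at a log2 fold change of 1 in either direction. PHF1 has filled points in all 12 genotypes, and PHT1;7 in the 4 phl single mutants and Col.

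PHT1;4, with PHT1;1 the main carrier of phosphate uptake in Arabidopsis roots, responded in every genotype. Under -Pi it had 371, 318 and 339 RPKM in the 3 phr1 libraries, 153, 154 and 146 RPKM in phr1phl1, 231, 215 and 218 RPKM in phr1phl4 and 480.4, 539 and 566 RPKM in Col, against 26.6, 19.3 and 26.0 RPKM in Col under +Pi. The phr1phl1 libraries were the lowest of these under -Pi and still stood above every +Pi library of Col. Its response was a log2 of 4.48 ± 0.10 in phr1, 3.31 ± 0.10 in phr1phl1 and 4.42 ± 0.10 in Col (limma, adjusted p = 6.22e-39 in Col), and it was called in all 12 genotypes, from 3.29 to 4.82. Against Col under -Pi the gene was lower in phr1phl1 (-1.80 ± 0.10), phr1phl4 (-1.25 ± 0.10), the triple mutant (-1.84 ± 0.10) and the quadruple mutant (-1.67 ± 0.10). In phr1 the difference was -0.62 ± 0.10, which did not reach the fold threshold.

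PHT1;1, the most abundant transporter of fed Col roots, had the smallest called response of Col. Under -Pi it had 177, 180.4 and 173 RPKM in phr1, 211, 196 and 203 RPKM in phr1phl1, 551, 640.1 and 499 RPKM in phl4, 412, 369 and 324 RPKM in phr1phl4 and 345, 368 and 363 RPKM in Col, against 135, 152 and 154 RPKM in Col under +Pi. All phl4 libraries were above all Col libraries, the phr1phl4 libraries overlapped those of Col, and those of phr1 and phr1phl1 were below. The response was 1.29 ± 0.13 in Col (limma, adjusted p = 3.81e-12) and was called in phl1, phl2, phl4 and phr1phl4 as well (1.17 to 1.39), whereas it was 0.30 ± 0.13 in phr1 and 0.50 ± 0.13 in phr1phl1. Against Col under -Pi it was lower in phr1 at -1.02 ± 0.13 (limma, adjusted p = 1.45e-08), a call that ends at -1.0 without Col -Pi replicate 2 or phr1 -Pi replicate 3. It was also lower in the quadruple mutant at -1.03 ± 0.13, a call that ends at -0.94 with library class as a term. Adding phl1, phl2 or phl3 to phr1 moved it by 0.20 ± 0.13, 0.14 ± 0.13 and 0.22 ± 0.13, none of them called.

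PHT1;2, which also works in phosphate uptake at the root surface, ran from 0.0962 to 464 RPKM over the 72 libraries. Under -Pi it had 19.4, 20.9 and 19.4 RPKM in phr1, 5.06, 5.23 and 5.20 RPKM in phr1phl1, 431, 464 and 395 RPKM in phl4, 70.3, 62.7 and 58.0 RPKM in phr1phl4 and 121, 122 and 121 RPKM in Col, against 1.35, 0.716 and 1.03 RPKM in Col under +Pi. None of these 6 sets overlapped. The Col response of 5.92 ± 0.13 (limma, adjusted p = 4.07e-39) was the largest of the family there, and the gene was called in all 12 genotypes, from 2.30 to 7.27. Against Col under -Pi it was lower in phr1 (-2.55 ± 0.13), phr1phl1 (-4.31 ± 0.13), phr1phl2 (-2.68 ± 0.13), phr1phl3 (-2.61 ± 0.13), the triple mutant (-4.01 ± 0.13) and the quadruple mutant (-4.33 ± 0.13), and higher in phl4 (1.81 ± 0.13). The response of the 3 uptake genes of the cluster taken as a sum was not called in 6 of the 12 genotypes. It was 0.45 in phr1, 0.53 in phr1phl1, 0.28 in phr1phl2, 0.18 in phr1phl3, 0.83 in the triple mutant and 0.57 in the quadruple mutant. Most of that sum was PHT1;1 in these 6, so it cannot show the response of PHT1;2 alone.

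PHT1;3, a root transporter of the same cluster, reached 1 RPKM in the starved phl4 libraries only. It had 5.13, 6.14 and 4.64 RPKM in phl4, 0 in each -Pi library of phr1, phr1phl1, phr1phl2, the triple and the quadruple mutant, and 0.504, 0.273 and 0.621 RPKM in Col under -Pi. It passed the filter on low values only through the 3 phl4 libraries, so that its difference from Col there (2.11 ± 0.07) had to follow and is given as a description. It was listed at 0 in 53 of the 72 libraries. At the median depth 1 read in it is worth about 0.0278 RPKM, so the Col values rest on few reads.

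PHT1;7 stayed under 1 RPKM in every library with the phr1 mutation. Under -Pi it had 0.235, 0.371 and 0.378 RPKM in phr1, 0 in all 3 phr1phl1 libraries, 18.2, 17.5 and 19.4 RPKM in phl4 and 10.8, 12.5 and 12.2 RPKM in Col, and it was listed at 0 in all 3 Col libraries under +Pi. Every phl4 library was above every Col library, and no phr1 library overlapped those of Col. On the log2(RPKM + 1) scale it differed from Col under -Pi by -3.27 ± 0.07 in phr1 (limma, adjusted p = 1.19e-39) and by -3.68 ± 0.07 in phr1phl1, and by -2.79 to -3.63 in the other genotypes with phr1. Its response was called in Col and the 4 phl single mutants and in none of the 7 genotypes that carry phr1, where it ran from -0.02 to 0.85. A small response remained in phr1 (0.328 against 0 RPKM under +Pi), phr1phl2 (0.854 against 0.0254 RPKM) and phr1phl3 (0.518 against 0 RPKM). Their adjusted p by limma was 6.03e-06, 8.46e-15 and 7.37e-10, below the fold threshold on a scale that understates changes near 0. In phr1phl1 and the triple mutant the libraries of the 2 media overlapped.

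PHT1;5, which moves phosphate between source and sink organs, differed between the double mutants. Under -Pi it had 5.05, 4.31 and 5.89 RPKM in phr1, 0.258, 0.0522 and 0.0603 RPKM in phr1phl1, 1.48, 2.60 and 1.91 RPKM in phr1phl2, 1.60, 2.02 and 2.40 RPKM in phr1phl3, 0.852, 0.767 and 0.897 RPKM in phr1phl4 and 14.6, 14.5 and 14.8 RPKM in Col, against 0.315, 0 and 0.104 RPKM in Col under +Pi. The phr1phl1 libraries lay within the range of Col under +Pi. Relative to Col under -Pi the difference was -1.37 ± 0.10 in phr1, -2.40 ± 0.10 in phr1phl2, -2.39 ± 0.10 in phr1phl3, -3.09 ± 0.10 in phr1phl4 and -3.80 ± 0.10 in phr1phl1 (limma, adjusted p = 2.69e-36 in phr1phl1). It was the member furthest below Col in phl4, with 6.75, 6.83 and 7.19 RPKM and a difference of -0.98 ± 0.10 that did not reach the fold threshold but was called with library class as a term (-1.03).

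PHT1;8 and PHT1;9, a pair with 79.4% identical coding bases, serve the movement of phosphate from root to shoot. Under -Pi the first had 4.84, 4.75 and 5.22 RPKM in phr1, 0.279, 0.736 and 0.507 RPKM in phr1phl1, 18.3, 21.8 and 19.8 RPKM in phl4 and 24.1, 23.8 and 22.2 RPKM in Col, against 0.525, 0.852 and 0.929 RPKM in Col under +Pi. The second had 5.39, 7.34 and 7.19 RPKM in phr1, 1.21, 0.741 and 0.870 RPKM in phr1phl1, 30, 29.9 and 28.2 RPKM in phl4 and 21.6, 21.8 and 20.7 RPKM in Col, against 0.710, 0.756 and 0.809 RPKM in Col under +Pi. In starved phr1phl1 roots both overlapped fed Col roots. Under -Pi the difference from Col was -2.04 ± 0.13 in phr1 and -4.03 ± 0.13 in phr1phl1 for the first, and -1.56 ± 0.10 and -3.53 ± 0.10 in the same mutants for the second. In phl4 roots the differences were -0.22 ± 0.13 and 0.44 ± 0.10, and neither was called.

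PHF1, the exit factor for the transporters, was higher under -Pi in every genotype. Under -Pi it had 106, 109 and 95.6 RPKM in phr1, 58.0, 59.4 and 61.2 RPKM in phr1phl1, 155, 135 and 170.2 RPKM in phl4 and 139.8, 146 and 147 RPKM in Col, against 20.4, 23.7 and 21.1 RPKM in Col under +Pi. The phl4 libraries overlapped those of Col, and those of phr1 and phr1phl1 lay below. The response was called in all 12 genotypes, from 1.53 to 2.68, and was 1.79 ± 0.16 in phr1phl1 and 2.68 ± 0.16 in Col (limma, adjusted p = 4.1e-21 in Col). PHF1 fell in phr1phl1 (-1.26 ± 0.16), the triple mutant (-1.17 ± 0.16) and the quadruple mutant (-1.13 ± 0.16) relative to Col under -Pi. The last of these calls ends at -0.93 without phr1phl1phl2phl3 -Pi replicate 2.

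Against Col under -Pi, the members called lower were counted with the share of all tested genes called lower beside them, and all these comparisons share the 3 Col libraries. The count was 6 of 9 in phr1 (0.783%), 7 in phr1phl1 (4.51%), 5 in phr1phl2 (3.92%), 5 in phr1phl3 (5.17%), 5 in phr1phl4 (6.05%), 7 in the triple mutant (4.61%) and 8 in the quadruple mutant (5.65%). The member medians were -1.37 in phr1 and -3.53 in phr1phl1, against 0.05 and 0.09 over all tested genes. None was called by limma in phl1 (0.170%), phl2 (4.44%) and phl3 (3.59%), where 5, 6 and 8 members had an unadjusted p under 0.05, with differences from -0.76 to 0.19. In phl4 none was lower (3.29%) and 2 were higher (5.37%), namely AT5G43370 and, through the filter, AT5G43360. The phl2, phl3 and phr1phl3 libraries shared no class with those of Col, so genotype and class cannot be told apart there.

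**Figure D5:**
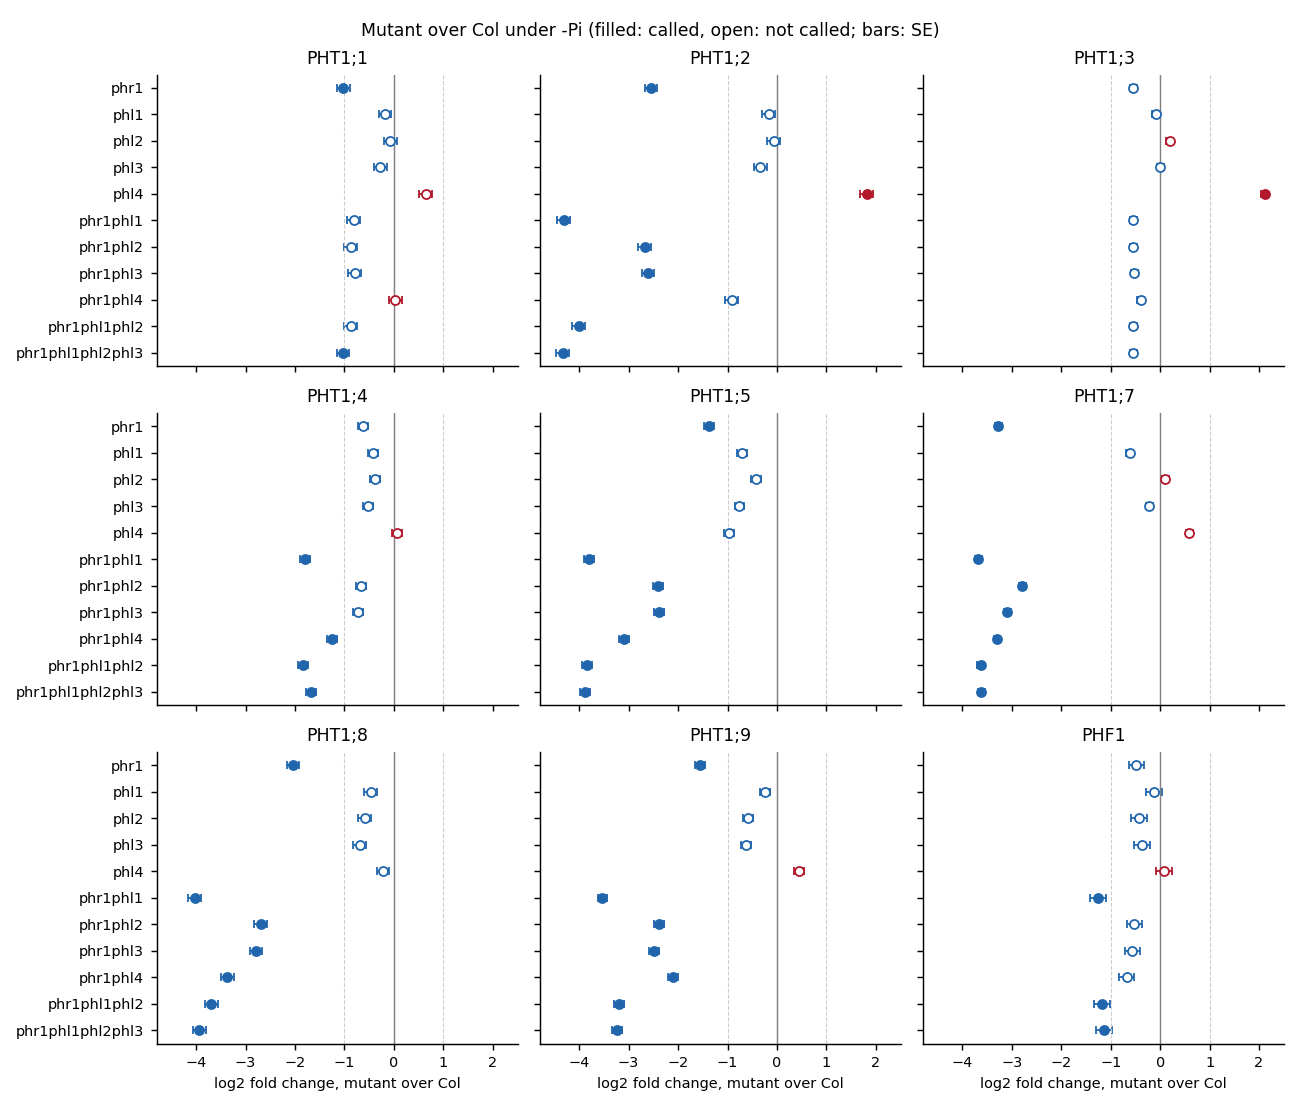
Log2 fold change of each mutant over Col under -Pi for 9 genes, with SE as bars, filled points for called genes and dashed lines at a log2 fold change of 1 in either direction. The filled points of phl4 lie right of 0 in 2 panels, and those of phr1phl1 left of 0 in 7.

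The markers of root hairs, of root tissues and of shoot tissue also had other levels in several starved mutants than in Col. The summed level of 8 root hair markers was 868 to 888 RPKM in phl4, 589 to 678 RPKM in phr1phl4 and 389.8 to 409 RPKM in Col under -Pi. It was also above Col in phl1 (476 to 529 RPKM), phl2 (446 to 508 RPKM) and phl3 (499.9 to 543 RPKM). The sum was below Col in phr1 (364 to 371 RPKM), phr1phl1 (303 to 352 RPKM), phr1phl2 (239 to 249 RPKM) and phr1phl3 (278 to 293 RPKM). The same held for the triple (291 to 303 RPKM) and the quadruple mutant (282 to 312 RPKM). Tested singly, 3 of these 8 genes were called higher in phl4 (5.37% of all tested genes) and 1 in phr1phl4 (2729 of 21206). None was called in phl1, phl2, phl3, phr1, phr1phl1 or phr1phl3. Called lower were 1 in phr1phl2 (3.92%), 1 in the triple (4.61%) and 2 in the quadruple mutant (5.65%). The summed level of 8 photosynthesis genes used as shoot markers, none of them at 0 in every library, was 53.3 to 101 RPKM in phl4, 1067 to 1249 RPKM in phr1phl4, 13.3 to 13.5 RPKM in phr1, 111 to 155 RPKM in phr1phl1, 38.5 to 108 RPKM in phr1phl2, 103 to 114 RPKM in phr1phl3, 72.5 to 417 RPKM in the triple mutant, 256 to 408 RPKM in the quadruple mutant and 2.49 to 3.11 RPKM in Col under -Pi. In Col under +Pi it was 137 to 301 RPKM. The summed level of the 7 root tissue markers was 195 to 213 RPKM in Col under -Pi. It was lower in phr1 (185 to 189 RPKM), phr1phl1 (159 to 168 RPKM), phr1phl2 (141 to 148 RPKM) and phr1phl3 (133 to 138 RPKM). So it was in phr1phl4 (129 to 136 RPKM), the triple (142 to 164 RPKM) and the quadruple mutant (149 to 164 RPKM). In phl1, phl2, phl3 and phl4 this sum overlapped Col. The part of root hair cells, other root tissues or shoot tissue in the results for the transporters was not tested.

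Steps between genotypes under -Pi compared each multiple mutant with a line that carries 1 mutation fewer. Adding phl1 to phr1 lowered 5 members (4.35% of all tested genes lower), namely AT5G43370 at -1.76 ± 0.13, AT2G38940 at -1.17 ± 0.10, AT2G32830 at -2.43 ± 0.10, AT1G20860 at -1.99 ± 0.13 and AT1G76430 at -1.97 ± 0.10. The sum of the 3 uptake genes of the cluster moved by 0.08 in this step. Most of it was PHT1;1, with 177 RPKM in phr1 and 204 RPKM in phr1phl1, against 19.9 and 5.17 RPKM for PHT1;2. The sum therefore cannot show the change of PHT1;2 alone. Adding phr1 to phl1 lowered 7 (4.14%). Adding phl2 to phr1 lowered 1 (2.87%) and adding phl3 to phr1 lowered 1 (3.78%), AT2G32830 (PHT1;5) both times, at -1.03 ± 0.10 and -1.02 ± 0.10. Both calls rest on single libraries, since they end without phr1 -Pi replicate 3, at -0.93 and -0.92, and also without phr1phl2 -Pi replicate 1 (-0.90) or phr1phl3 -Pi replicate 1 (-0.92). Without phr1 -Pi replicate 1, 2 members were called in phr1phl3 against phr1, and with a pseudocount of 0.1 there were 2 in each of these comparisons. The phr1phl3 libraries shared no class with those of phr1, so genotype and class cannot be told apart between them.

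Adding phl4 to phr1 moved the members in both directions. There 2 members were lower (4.83%) and 2 higher (7.41%). AT5G43350 (PHT1;1) rose by 1.05 ± 0.13 and AT5G43370 (PHT1;2) by 1.63 ± 0.13, whereas AT2G32830 fell by 1.72 ± 0.10 and AT1G20860 fell by 1.33 ± 0.13 on the log2 scale. The first of these calls ends after rescaling of the libraries (1.0) and without phr1phl4 -Pi replicate 1 (0.96). Going from phr1phl1 to the triple mutant (0.0943%) and from the triple to the quadruple mutant (0.151%) called no member by limma, with 3 and 1 members at an unadjusted p under 0.05.

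With phosphate supplied, 1 call was made over the 11 mutants, PHT1;4 in phr1phl4, with 6.62, 7.30 and 6.68 RPKM in phr1phl4 and 26.6, 19.3 and 26.0 RPKM in Col under +Pi, a difference of -1.65 ± 0.10 (limma, adjusted p = 2.48e-19) among 2.59% of all tested genes lower. No member was called by limma in phr1 (1.70%), phl1 (3.47%), phl2 (10.1%), phl3 (9.0%), phl4 (0.986%), phr1phl1 (7.17%), phr1phl2 (5.29%), phr1phl3 (1.39%), the triple mutant (5.21%) or the quadruple mutant (7.09%), with 0 to 5 members at an unadjusted p under 0.05. In the triple mutant the same gene was at -0.97 ± 0.10, and 1 member was called there without Col +Pi replicate 2 or without replicate 1 or 3 of the triple mutant. With a pseudocount of 0.1 in place of 1 the counts in phr1, phr1phl1, phr1phl2, phr1phl4, the triple and the quadruple mutant were 1, 2, 1, 2, 3 and 2. Under +Pi, phl2, phl3 and the quadruple mutant shared no class with Col, so genotype and class cannot be told apart there.

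Whether a response differed from that of Col was tested as the difference of the 2 responses, with the same Col libraries in every comparison. The number of members with a smaller response was 5 in phr1 (1.36% of all tested genes), 6 in phr1phl1 (4.26%), 6 in phr1phl2 (7.13%), 6 in phr1phl3 (12.2%), 6 in phr1phl4 (5.39%), 6 in the triple mutant (3.53%) and 6 in the quadruple mutant (7.88%). None was called by limma in phl1 (1.95%), phl2 (11.5%) or phl3 (9.39%), with 2, 5 and 6 members at an unadjusted p under 0.05. In phl4 none was smaller (4.23%) and 2 were larger (5.75%), at 1.35 ± 0.19 for AT5G43370 and, through the filter, 2.09 ± 0.10 for AT5G43360. With a pseudocount of 0.1 the count in phr1 was 3.

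Other genes of phosphate transport were counted for comparison. Of 16 tested transporters outside the family, 5 were higher and 3 lower under -Pi in Col, where 6.24% of all tested genes were higher and 8.20% lower (median log2 0.26, against 0.02 over all tested genes). In phr1phl1 against Col under -Pi 4 were lower and none higher, where 4.51% of all tested genes were lower and 7.0% higher (median -0.31, against 0.09). PHT3;2, a mitochondrial phosphate carrier, had 0.541 ± 0.0883 RPKM in phr1phl1 and 4.85 ± 0.547 RPKM in Col under -Pi, against 0.366 ± 0.0682 RPKM in Col under +Pi. PHO1;H1, a relative of the phosphate exporter PHO1, had 7.72 ± 0.394 RPKM in phr1phl1 and 101 ± 3.11 RPKM in Col under -Pi, against 25.3 ± 6.08 RPKM in Col under +Pi. The gene listed here as VPE1 (AT3G47420, G3Pp1 in RefSeq), whose rice counterpart is a vacuolar phosphate efflux carrier, had 87.3 ± 5.18 RPKM in phr1phl1 and 321 ± 11 RPKM in Col under -Pi, against 33.2 ± 2.72 RPKM in Col under +Pi (SD, n = 3 each).

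Genes that act on PHT1 proteins were counted as well. Of 6 tested genes of transporter turnover and trafficking, 2 were higher in phr1phl1 than in Col under -Pi (7.0% of all tested genes) and 1 was lower in Col under -Pi than under +Pi (8.20%). PHO2, an enzyme of the ubiquitin pathway that promotes the loss of PHT1 and PHO1 proteins, had 312 ± 33.5 RPKM in phr1phl1 and 63.1 ± 0.545 RPKM in Col under -Pi (2.28 ± 0.28). NLA, a ubiquitin ligase that acts on PHT1 proteins, had 17.7 ± 2.78 RPKM in phr1phl1 and 5.63 ± 0.984 RPKM in Col under -Pi (1.49 ± 0.14), and fell by 1.36 ± 0.14 under -Pi in Col. Of 10 tested transcription factors linked to PHT1 genes, 1 was lower under -Pi in Col (8.20% of all tested genes) and none higher (6.24%). This was WRKY75, which fell by 1.20 ± 0.43. The call was lost with the library class term (-0.8) and in class 1 libraries alone (-0.82). It was also lost when Col +Pi replicate 1 (-0.82) or Col -Pi replicate 3 (-1.07) was left out. In phr1phl1 against Col under -Pi, 1 was higher (7.0% of all tested genes) and 1 lower (4.51%). WRKY75 was at 1.15 ± 0.43, a call lost at 1.02 to 1.13 when Col -Pi replicate 3 or phr1phl1 -Pi replicate 1 or 2 was left out, and PHR1 was at -2.21 ± 0.14.

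Likeness of pattern was measured over the 24 group means of log2(RPKM + 1), as Pearson's r, with the same libraries and scaling behind every point. AT2G38940 (PHT1;4) and PHF1 were each other's nearest member (r = 0.974). AT1G20860 was the nearest member for AT2G32830 (0.978), AT3G54700 (0.954) and AT1G76430 (0.971), and AT5G43370 was nearest for AT5G43350 (0.920). With a pseudocount of 0.1 the nearest member was another for 3 of these, namely AT1G76430 for AT2G32830 (0.963) and for AT3G54700 (0.949), and AT5G43370 for AT1G76430 (0.964). Of all other tested genes, those nearest to AT2G38940 were SQD1 (0.990), which makes sulfolipid precursors, and SRG3 (0.988), and RNS1 (0.985), a ribonuclease, was nearest to AT5G43370. For AT5G43350 no gene outside the family was above 0.919, the value of CYP79F1. With a pseudocount of 0.1, 12 of the 27 nearest outside genes stayed among the nearest.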

How the data were processed

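RPKM values per gene were used as the authors deposited them, in 1 table with 1 column for each of 72 root libraries. The submitters' processing notes name TopHat, edgeR and TAIR10 without versions or roles. Strand and read length are not given in the sources used here. Each column name matched a sample label (0 left over, 0 identical pairs). Column sums ran from 559809 to 742047 RPKM. Depth was estimated from the steps between low values of genes with 1 exon (11.1 to 40.5 M reads, median 23.0, with a median of 63.2% of low values within 0.05 of a whole step).

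Log2(RPKM + 1) was fitted with limma 3.58.1 (R 4.3.3) over all 72 libraries with 24 group means, trend and robust settings. The 21206 genes that reached 1 RPKM in 3 or more libraries were tested in 52 comparisons, with Benjamini-Hochberg adjustment over these genes in each. The fit was tested on simulated data. All 10 members are named, and from each list of related genes up to 3 called genes with the largest change. The members and lists were chosen with earlier results of these data known. Other settings tried were no filter (29088 genes), a pseudocount of 0.1, median-ratio rescaling (factors 0.837 to 1.14), fits restricted to the groups compared, a replicate block, a library class term, class 1 libraries alone, the 3 uptake genes of the chromosome 5 cluster summed, and each library left out. Classes rest on slopes of 9192 genes on base content and length (mean silhouette 0.57). Names, coordinates and sequences came from RefSeq TAIR10.1, which 32835 gene IDs matched. Python 3.11.15, pandas 2.3.3 and Biopython 1.88 were used.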

Additional observations from a re-analysis of the deposited data

Results flagged for a closer look

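Of 99 tests of a member's response against that of Col, 43 passed the threshold for the difference itself. Values are the mutant's log2 response to -Pi minus that of Col, from limma, and all use the same 6 Col libraries. In phr1 they were PHT1;2 at -2.07, PHT1;5 at -1.26, PHT1;7 at -3.27, PHT1;8 at -1.64 and PHT1;9 at -1.21. With a pseudocount of 0.1 the last 2 and PHT1;5 were not called (-1.23, -0.82 and -1.05). In phr1phl1 they were PHT1;2 at -3.62, PHT1;4 at -1.11, PHT1;5 at -3.65, PHT1;7 at -3.71, PHT1;8 at -3.34 and PHT1;9 at -3.41. In phr1phl2 they were PHT1;1 at -1.13, PHT1;2 at -2.52, PHT1;5 at -2.26, PHT1;7 at -2.83, PHT1;8 at -2.58 and PHT1;9 at -1.91. In phr1phl3 they were PHT1;1 at -1.23, PHT1;2 at -2.39, PHT1;5 at -2.27, PHT1;7 at -3.09, PHT1;8 at -2.90 and PHT1;9 at -2.20.

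In phr1phl4 they were PHT1;2 at -1.09, PHT1;5 at -3.02, PHT1;7 at -3.32, PHT1;8 at -2.65, PHT1;9 at -2.11 and PHF1 at -1.04. The call of PHT1;2 there ends with the class term (-1.0) and without Col +Pi replicate 2 (-0.97) or phr1phl4 +Pi replicate 1 (-0.90). The sum of PHT1;1 to PHT1;3 was at -0.08 there, not called. The call of PHF1 in phr1phl4 ends in class 1 libraries alone (-0.91) and without phr1phl4 +Pi replicate 2 (-0.98). In the triple mutant they were PHT1;2 at -3.28, PHT1;5 at -3.72, PHT1;7 at -3.63, PHT1;8 at -3.09, PHT1;9 at -2.86 and PHF1 at -1.15. In the quadruple mutant they were PHT1;2 at -3.55, PHT1;4 at -1.13, PHT1;5 at -3.73, PHT1;7 at -3.62, PHT1;8 at -3.43 and PHT1;9 at -2.91. In phl4 alone the sign was positive, with PHT1;2 at 1.35 and PHT1;3 at 2.09, which passed the filter on low values through phl4 alone. The sum of PHT1;1 to PHT1;3 was at 0.43 in phl4 and at -0.87 in the triple mutant, neither of them called. PHT1;1 was the largest part of this sum, so these are not values of PHT1;2 or PHT1;3 alone. With the pseudocount of 1, PHT1;2, PHT1;5, PHT1;7, PHT1;8 and PHT1;9 thus appear in all 7 genotypes that carry phr1, whereas PHT1;4 appears in phr1phl1 and the quadruple mutant. With 0.1 in its place, PHT1;5, PHT1;8 and PHT1;9 drop out in phr1, and PHT1;2 in phr1phl4 has the limits given above. Both calls of PHT1;4 end without Col +Pi replicate 2, at -0.97 in phr1phl1 and -0.98 in the quadruple mutant. Those of PHT1;1 end with the class term, at -0.73 in phr1phl2 and -0.87 in phr1phl3.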

How the results depend on the processing

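With a pseudocount of 0.1 the number of called members was 5 in the responses of the triple and the quadruple mutant, 1, 2, 1, 2, 3 and 2 against Col under +Pi in phr1, phr1phl1, phr1phl2, phr1phl4, the triple and the quadruple mutant, 2 in phr1phl2 and 2 in phr1phl3 against phr1, and 3 and 1 for the differences in response of phr1 and phl3. The sum of PHT1;1 to PHT1;3, mostly PHT1;1, was at 0.08 in phr1phl1 against phr1, where PHT1;2 by itself was lower. Leaving out 1 library gave 0 to 1 called members in the triple mutant under +Pi (without Col +Pi replicate 2 or triple +Pi replicate 1 or 3), 0 to 1 in phr1phl2 and 0 to 2 in phr1phl3 against phr1. Without Col +Pi replicate 2 the PHT1;4 differences in response were -0.97 in phr1phl1 and -0.98 in the quadruple mutant, and the PHT1;2 difference in phr1phl4 was -0.97, none of them called. With the class term, PHT1;1 in the quadruple mutant under -Pi (-0.94) the PHT1;1 differences in phr1phl2 (-0.73) and phr1phl3 (-0.87) and the PHT1;2 difference in phr1phl4 (-1.0) were not called, whereas the responses of PHT1;1 in phl3 (1.37) and PHT1;8 in phr1phl3 (1.06), PHT1;5 in phl4 under -Pi (-1.03) and the PHF1 difference in the quadruple mutant (-1.03) were. The replicate block changed no call: 7 members remained lower in phr1phl1 than in Col under -Pi. Same-numbered libraries shared deviations over 0.1 in every pair in 2 of 41 pairs of groups (median correlation -0.0333). Rescaling moved the median of all genes by up to 0.21 (log2, -Pi response of phr1phl1) and reversed no called member. Without counts per gene, no interval for counting error is given. The cause of these changes was not tested.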
